A study of Mus musculus with 6 samples.

Results

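The loci of 5 genes that act at excitatory synapses, Camk2a, Gria1, Grin2a, Grin2b and Nrxn3, were examined for accessible chromatin in the dentate gyrus of the adult mouse. Members were all called ATAC-seq peaks that overlapped a fixed mm9 window around each gene by at least 1 bp, merged across libraries where they touched or overlapped. The windows held 122 of the 70575 merged regions on chromosomes 1 to 19 and X. Of these, 13 lay in the Camk2a window, 19 in that of Gria1, 16 in that of Grin2a, 21 in that of Grin2b and 53 in that of Nrxn3. ATAC-seq uses the transposase Tn5 to insert adapters into open DNA, so that reads pile up where chromatin is accessible. The dentate gyrus, microdissected from mice labelled as 8 weeks old, had been infected with adeno-associated virus (AAV) that expressed EYFP, the fluorescent control protein, or cFos, a subunit of the AP-1 transcription factor that active neurons make. There were 3 EYFP and 3 cFos libraries, each from 1 animal, so both groups share the infection and the dissection. The labels do not say whether the cFos animals received EYFP virus as well. The strain label reads C57BL/6 in the first sample and its final number goes up by 1 in each later sample, so strain was not used. The promoter in the virus and the cells it infected were not stated in the labels, and the microdissected tissue holds granule cells together with interneurons and glia. Tissue markers were not checked, because no mm9 annotation was used. A change in the mix of cells and a change within cells cannot be told apart in such bulk tissue.

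Fast excitation in the hippocampus runs on glutamate. AMPA receptors, to which GluA1 (Gria1) belongs, carry most of the fast current, and NMDA receptors, whose GluN2A (Grin2a) and GluN2B (Grin2b) subunits set their kinetics, admit the calcium that triggers plasticity. That calcium activates CaMKII, whose alpha subunit is encoded by Camk2a and is abundant in the postsynaptic density of forebrain excitatory neurons. Neurexin-3 (Nrxn3) is a presynaptic adhesion molecule that binds postsynaptic partners across the cleft; the neurexin genes are very long and make long alpha and short beta forms from separate promoters. Apart from Camk2a, the genes of this group are long, with most of their length in introns.

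The windows, in mm9, were chromosome 18 from 61035000 to 61198000 for Camk2a, chromosome 11 from 56775000 to 57195000 for Gria1, chromosome 16 from 9517000 to 10046000 for Grin2a, chromosome 6 from 135613000 to 136175000 for Grin2b and chromosome 12 from 89910000 to 91625000 for Nrxn3. The part of a window more than 50 kb from either edge was taken as the gene itself and is called the inner part; it measured 63 kb for Camk2a, 320 kb for Gria1, 429 kb for Grin2a, 462 kb for Grin2b and 1615 kb for Nrxn3. Exact gene ends, exons and introns were not used.

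The 5′ side of a gene was assigned from its known direction, with Camk2a, Gria1 and Nrxn3 read toward higher coordinates and Grin2a and Grin2b toward lower ones. In the RefSeq gene order, on GRCm38.p6, the protein-coding neighbours of Camk2a are Arsi and Slc6a7, so peaks near the edges of its window may belong to those genes.

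Promoter sequence is shown for Nrxn3 alone, because it was the 1 gene of the 5 that was matched in the selection of promoter entries used. For Nrxn3, RefSeq on GRCm38.p6 gave 3 transcript starts. That no sequence is printed for the other genes does not show that RefSeq lacks entries for them. The 250 bases before each Nrxn3 start are printed 5′ to 3′ on the plus strand. Capitals mark a match to the relaxed AP-1 motif TGANTCA. The starts were not placed on mm9, so no peak is assigned to any of them.
Nrxn3 start a, chr12:88794254-88794503: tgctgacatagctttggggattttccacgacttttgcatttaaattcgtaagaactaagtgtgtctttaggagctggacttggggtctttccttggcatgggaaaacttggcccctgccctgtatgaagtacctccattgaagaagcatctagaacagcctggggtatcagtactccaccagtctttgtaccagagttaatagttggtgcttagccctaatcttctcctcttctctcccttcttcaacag
Nrxn3 start b, chr12:88953140-88953389: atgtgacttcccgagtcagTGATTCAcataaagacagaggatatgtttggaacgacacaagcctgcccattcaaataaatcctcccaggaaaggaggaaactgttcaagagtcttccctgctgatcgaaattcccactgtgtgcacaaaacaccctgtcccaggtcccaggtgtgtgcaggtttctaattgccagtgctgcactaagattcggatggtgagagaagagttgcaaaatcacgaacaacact
Nrxn3 start c, chr12:89812233-89812482: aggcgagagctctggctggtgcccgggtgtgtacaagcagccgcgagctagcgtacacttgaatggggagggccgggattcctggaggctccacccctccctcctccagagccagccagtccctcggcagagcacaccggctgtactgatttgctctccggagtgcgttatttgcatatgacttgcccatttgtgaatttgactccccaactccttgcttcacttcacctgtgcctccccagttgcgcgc
Both strands were searched for the AP-1 site TGAGTCA, for its relaxed form TGANTCA, which includes it, and for the cyclic AMP response element TGACGTCA. Start b holds 1 TGANTCA match, TGATTCA, which begins 231 bases before the start. No other match lies in these 3 stretches. Over the 32851 promoter entries, 4.46% hold TGAGTCA, 6.75% hold TGANTCA and 1.55% hold TGACGTCA in the same 250 bases. The stretch before start c is the richest of the 3 in G and C, at 60% against 45.6% and 46.8%.

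The data are 1 list of called peaks per library, each peak with a start, an end and the authors' score, which runs from 50 to 3100. On the chromosomes used, list length was 29896, 44285 and 33026 peaks for EYFP replicates 1 to 3, and 26715, 23986 and 34690 peaks for cFos replicates 1 to 3. Read depth is unknown, so absence of a call does not show that the chromatin was closed. List length and peak width differ between the groups as well. The median peak was 553 to 569 bp wide in EYFP lists and 437 to 479 bp in cFos lists, and the part of these differences in the results below was not tested.

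The excitatory synapse loci were marked by weak peaks. In the 5 windows together, EYFP replicates 1 to 3 had 43, 69 and 52 peaks and cFos replicates 1 to 3 had 25, 28 and 52. The highest count in each group was 69 and 52, and cFos replicate 3 matched EYFP replicate 3. Per 100 kb this was 1.27, 2.04 and 1.53 peaks in EYFP and 0.738, 0.826 and 1.53 in cFos libraries. The whole lists gave 1.16, 1.72 and 1.28 in EYFP and 1.04, 0.931 and 1.35 in cFos libraries, so the windows stood above the list in all 3 EYFP libraries and in cFos replicate 3, and below it in cFos replicates 1 and 2. The peaks ranked low by score within their lists. Between 21.2% (EYFP replicate 3) and 37.7% (EYFP replicate 2) of them lay above the median of their own list, which splits each list at 50%. Their median percentile was 29.5 to 40.0 in EYFP and 33.6 to 37.9 in cFos libraries. No peak in any of the 5 windows rose above the 90th percentile of its list in any of the 6 libraries.

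Lack of a top-ranked peak was common for short stretches of the genome and uncommon for one as long as Nrxn3. The genome was cut into tiles of each window's length, and tiles with at least 1 called peak were kept. Of tiles as long as the Camk2a window, 71.9% had no peak above the 90th percentile in any library, and the values were 51.4% for Gria1, 45.2% for Grin2a, 44.4% for Grin2b and 13.8% for Nrxn3. Among tiles with at least as many merged regions as the window itself, the values were 47.7%, 22.8%, 23.0%, 18.1% and 2.56% in the same order, the last being 16 of 624 tiles. The Nrxn3 window thus combined 53 regions with no top-ranked peak, a combination few stretches of its length showed.

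Each locus had a region close to the 5′ edge of its inner part, where the gene is expected to start. The nearest region was centred 0.158 kb from that edge in Gria1, 0.816 kb in Camk2a, 1.35 kb in Nrxn3, 1.37 kb in Grin2a and 1.51 kb in Grin2b. At the 3′ edge the nearest region lay 3.01 kb away in Camk2a and 11.4 to 61.7 kb away in the other 4. These start-side regions differed in how often they were called, with 6 libraries for Camk2a and Nrxn3, 4 for Gria1, and 3 for Grin2a and Grin2b. The map of merged regions shows how the rest lay along the genes, counted here from the 5′ to the 3′ side over 4 stretches of equal length in the inner part. In Nrxn3, 51 regions were spread evenly, with 13, 14, 12 and 12 per stretch. The counts were less even in Camk2a (4, 1, 1 and 1), Gria1 (7, 4, 2 and 5), Grin2a (5, 6, 3 and 2) and Grin2b (5, 2, 8 and 4). The longest stretch with no region was 103 kb in Nrxn3, 75.8 kb in Grin2b, 64.1 kb in Grin2a, 56.3 kb in Gria1 and 20.02 kb in Camk2a.

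**Figure D1:**
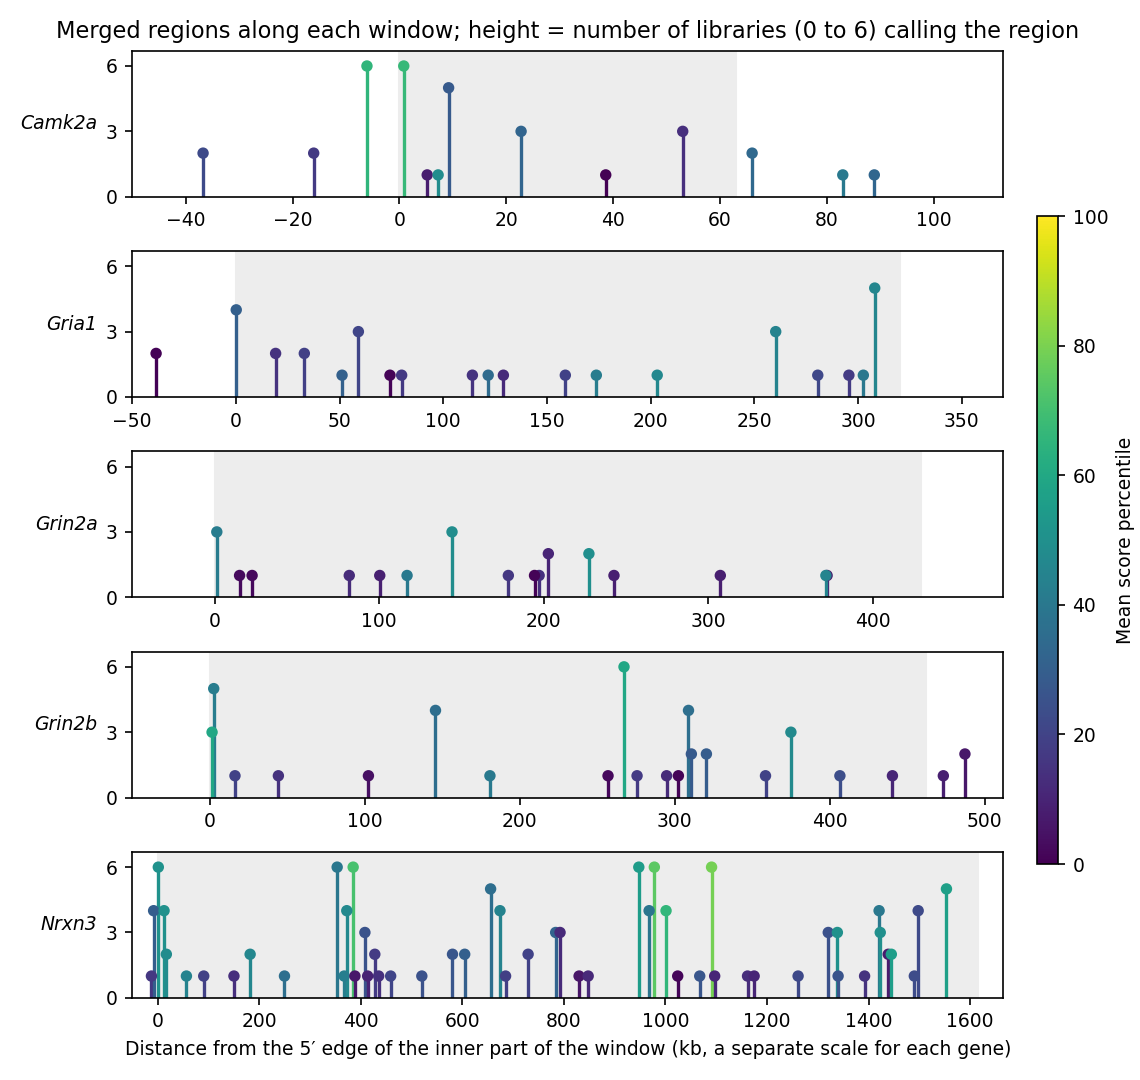
Merged regions along the 5 windows, by distance in kb from the 5′ edge of the inner part (grey, with white margins of 50 kb), on a separate scale per gene. Stem height is the number of libraries, of 6, that called the region and colour is its mean score percentile. Each gene has a region near 0, and the regions that 6 libraries called lie in Camk2a, Grin2b and Nrxn3.

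Agreement between libraries differed among the 5 loci. Of the 122 regions, 64 (52.5%) were called by a single library, where the background over all 70575 regions was 43.7%. All 6 libraries called 9 of them (7.38%), against a background of 16.8%. The 9 comprised 6 in Nrxn3, 2 in Camk2a and 1 in Grin2b, and neither Gria1 nor Grin2a had any. Single-library regions made up 75% of the regions in Grin2a, 63.2% in Gria1 and 57.1% in Grin2b, but 43.4% in Nrxn3 and 38.5% in Camk2a, close to or below that background. EYFP replicate 2, the longest list, supplied 18 of the 64. Limiting each list to its top 23986 peaks by score, as many as the shortest list held, left 70 regions in the windows. All 6 libraries called 8 of these (11.4%), against a background of 21.8%.

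**Figure D2:**
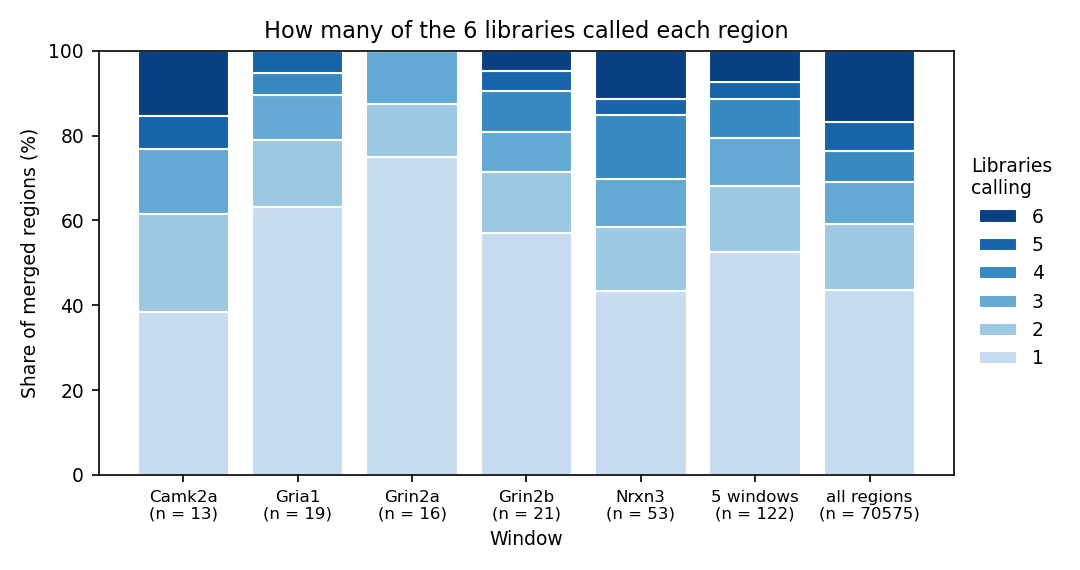
Share of merged regions (%, vertical axis) called by 1 to 6 libraries, for each window, the 5 windows together and all regions. Grin2a has no region called by more than 3 libraries, and regions called by all 6 make up 7.38% of the 122 members against 16.8% of all regions.

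Gria1 encodes the GluA1 subunit of AMPA receptors. Its window had 4, 12 and 5 peaks in EYFP replicates 1 to 3 and 4, 1 and 7 peaks in cFos replicates 1 to 3. EYFP replicate 2 was high and cFos replicate 2 low, and the groups overlapped. The density was 1.67 ± 1.04 peaks per 100 kb in EYFP and 0.952 ± 0.714 in cFos libraries (SD, n = 3; exact two-sided permutation p = 0.5). Without EYFP replicate 2 the difference shrank from -0.714 to -0.119 peaks per 100 kb. Within the inner part the density was 1.98 ± 1.26 and 1.25 ± 0.938. The region at the gene's 5′ edge, from 56824701 to 56825615, was the widest of the window at 915 bp. It scored 70.26 and 118.51 in EYFP replicates 1 and 2 and 51.28 and 66.2 in cFos replicates 1 and 3. EYFP replicate 3 and cFos replicate 2 had no call there. The most widely called region lay toward the 3′ end, 308 kb from the 5′ edge, from 57132674 to 57133418. It scored 85.09, 132.62 and 60.97 in EYFP replicates and 84.38 and 98.56 in cFos replicates 1 and 3. Both calls of cFos lie inside the EYFP range. Of all 6123 tiles of this window's 420 kb, empty ones included, 12.2% (cFos replicate 2) to 80.2% (EYFP replicate 2) held fewer peaks.

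Grin2a, which encodes the GluN2A subunit that becomes prominent as NMDA receptors mature, had the sparsest window of the 5 by the mean of either group, although Gria1 had fewer peaks per 100 kb in cFos replicate 2. EYFP replicates 1 to 3 had 4, 8 and 5 peaks and cFos replicates 1 to 3 had 1, 2 and 3. Every cFos library lay below every EYFP library. The density was 1.07 ± 0.394 peaks per 100 kb in EYFP and 0.378 ± 0.189 in cFos libraries (SD, 3 libraries each; exact two-sided permutation p = 0.1, which is the lowest that 3 against 3 allows). The cFos libraries lay below all EYFP libraries in 8.62% of genome tiles of this length, and above them in 0.572%. Grin2a was the 1 window of the 5 with such a gap in peak number, and for tiles as long as the others the share with cFos lower was 5.56% (Camk2a), 7.71% (Gria1), 8.44% (Grin2b) and 9.86% (Nrxn3). Scaled to list length, the window took 1.55 ± 0.237 of every 10000 peaks in EYFP and 0.691 ± 0.275 in cFos libraries (exact permutation p = 0.1), a gap seen in 7.12% of tiles. The gap closed on lists of equal length: EYFP libraries then had 1.67 ± 0.577 peaks in the window and cFos libraries 1.33 ± 1.15 (exact permutation p = 1). Peaks scoring under 60 numbered 2, 4 and 4 in EYFP replicates 1 to 3 and 1, 2 and 1 in cFos replicates 1 to 3, so weak peaks were present in both groups. Among peaks scoring 60 or more, cFos replicates 1 and 2 had none, and cFos replicate 3 had more than EYFP replicate 3. Without the weak peaks the groups therefore overlapped in number. The median score percentile was 21.1 ± 15.1 in EYFP and 18.1 ± 15.7 in cFos libraries (exact permutation p = 1).

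All 16 Grin2a regions lay in the inner part and none was called by more than 3 libraries. The widest, from 9993274 to 9995985, was the one at the 5′ edge and measured 2712 bp. It scored 99.74 and 140.45 in EYFP replicates 1 and 2 and 52.88 in cFos replicate 1, and was not called in the other 3 libraries. Its peaks covered 2044 and 1564 bp in those EYFP libraries and 369 bp in the cFos library. The cFos call was the single Grin2a peak of that library. A region 144 kb into the gene, from 9851345 to 9852199, scored 155.04 and 81.76 in EYFP replicates 2 and 3 and 73.51 in cFos replicate 3.

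Grin2b encodes GluN2B, the subunit that dominates NMDA receptors early in life and persists in the adult hippocampus. Its window had 5, 11 and 10 peaks in EYFP replicates and 5, 3 and 9 in cFos replicates. The groups overlapped, with cFos replicate 1 equal to EYFP replicate 1. The density was 1.54 ± 0.572 and 1.01 ± 0.544 peaks per 100 kb in EYFP and cFos libraries (SD, n = 3; exact two-sided permutation p = 0.3). The median score of the peaks was 74.2 ± 10.8 in EYFP and 61.3 ± 2.69 in cFos libraries (exact permutation p = 0.1), with no overlap, as in 11.5% of tiles of this length with peaks in every library. As percentiles of each list the medians were 33.5 ± 6.09 against 23.5 ± 5.15, and the groups overlapped (exact permutation p = 0.2).

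The region of Grin2b that all 6 libraries called lay deep in the gene, 267 kb from the 5′ edge, from 135857271 to 135858098. It scored 56.13, 227.5 and 173.92 in EYFP replicates 1 to 3 and 86.91, 140.17 and 137.37 in cFos replicates 1 to 3. The cFos values fell within the EYFP range, in which EYFP replicate 1 was low. At the 5′ edge, a pair of neighbouring regions lay at 136121990 to 136122847 and 136123031 to 136123948. The first scored 66.48, 107.35 and 104.32 in EYFP replicates and 64.42 and 83.48 in cFos replicates 2 and 3. The second was called in EYFP replicates 2 and 3 (172.38 and 77.33) and in cFos replicate 3 (138.6). cFos replicate 1 had no peak in either. The widest region, from 135749507 to 135750465 near the 3′ end, was called in the same 3 libraries, with scores of 184.44, 89.31 and 60.97.

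Camk2a, the gene of the CaMKII alpha subunit, had the densest window. EYFP replicates 1 to 3 had 6, 5 and 7 peaks and cFos replicates 1 to 3 had 5, 4 and 7, so the groups overlapped. The density was 3.68 ± 0.613 peaks per 100 kb in EYFP and 3.27 ± 0.937 in cFos libraries (SD, n = 3; exact two-sided permutation p = 0.8). Of all 15795 genome tiles of 163 kb, empty ones included, 77.3% (EYFP replicate 2) to 96.1% (EYFP replicate 3) held fewer peaks. In the inner part alone the direction turned, with 4.76 ± 2.75 peaks per 100 kb in EYFP and 5.82 ± 0.916 in cFos libraries (exact permutation p = 0.8). The number of peaks in the surrounding flanks was 4, 3 and 2 in EYFP and 1, 1 and 3 in cFos replicates.

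Camk2a also held broad peaks. The merged regions of its window had a median width of 968 bp, against 441 to 495 bp in the other 4 windows and 518 bp over all regions. The region at the 5′ edge, from 61084081 to 61087551, spanned 3471 bp and all 6 libraries called it. It scored 112.72, 119.24 and 165.18 in EYFP and 164.26, 110.66 and 153.48 in cFos replicates 1 to 3, with means of 132 ± 28.6 and 143 ± 28.4 (SD, n = 3; exact two-sided permutation p = 1). The scores overlapped, but the peaks differed in extent. They covered 3167, 3384 and 1527 bp in EYFP and 1151, 735 and 1155 bp in cFos replicates (exact permutation p = 0.1). Of the 11837 regions that all 6 libraries called, 34.2% showed the same gap in covered bases toward narrower cFos peaks and 0.321% the opposite gap. In the windows 4 of the 9 shared regions (44.4%) did and 0 went the opposite way. The neighbouring shared region, 6.1 kb upstream of the edge from 61078297 to 61079559, scored 109.36, 232.73 and 164.59 in EYFP and 101.52, 85.04 and 159.89 in cFos replicates. Its groups overlapped in score, and its peaks covered 805 to 1098 bp in EYFP and 431 to 584 bp in cFos libraries. A further region, from 61093425 to 61094999 inside the gene, was called in 5 libraries with scores from 53.15 to 79.64. The widest region of the window, 5647 bp from 61148188 to 61153834, rested on 1 peak of that full width in EYFP replicate 2 (score 78.59) and on a peak of 1239 bp in cFos replicate 3 (score 70.2). Over the whole Camk2a window, peaks covered 3750, 8279 and 5142 bp per 100 kb in EYFP and 2180, 2036 and 3170 in cFos replicates. That gap, toward cFos lower, was present in 26.8% of tiles of this length. Covered bases showed it also in Grin2a (714 ± 325 against 133 ± 70.0 bp per 100 kb) and Nrxn3 (794 ± 188 against 462 ± 195), where 38.1% and 52.7% of tiles of those lengths did.

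**Figure D3:**
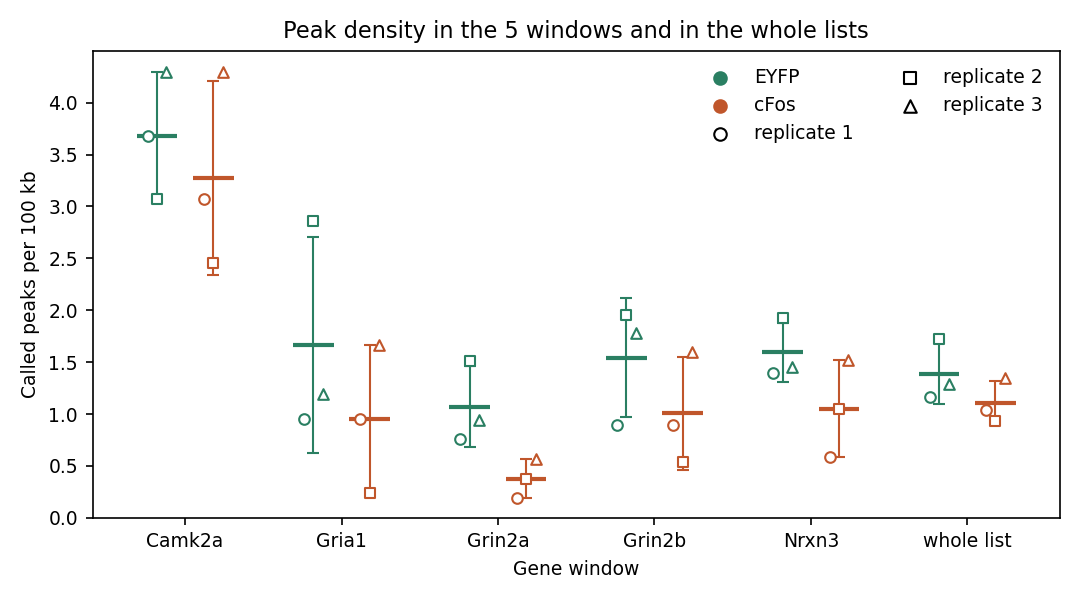
Called peaks per 100 kb (vertical axis) in each gene window and in the whole list, by library. Symbols are replicates, horizontal bars are group means and error bars are SD (n = 3). Camk2a is densest in both groups, and in Grin2a the 3 cFos libraries lie below the 3 EYFP libraries.

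Nrxn3, the longest locus, held most of the shared regions. EYFP replicates 1 to 3 had 24, 33 and 25 peaks in its window and cFos replicates 1 to 3 had 10, 18 and 26. cFos replicate 1 was low and cFos replicate 3 lay inside the EYFP range. The density was 1.59 ± 0.288 peaks per 100 kb in EYFP and 1.05 ± 0.466 in cFos libraries (SD, n = 3; exact two-sided permutation p = 0.3). On lists of equal length it had 16.3 ± 2.08 peaks in EYFP and 16 ± 5.29 in cFos libraries (exact permutation p = 1), and 10 in cFos replicate 1. The median percentile of its peaks was 40.3 ± 9.36 and 39.2 ± 3.82 (exact permutation p = 1).

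The Nrxn3 region with the highest score in each EYFP library was lower in every cFos library. In each cFos library another Nrxn3 region scored higher than it, so its rank comes from the EYFP group. It lay 1091 kb into the gene, from 91050176 to 91051344, and was 1169 bp wide. Its scores were 265.16, 323.31 and 278.67 in EYFP replicates 1 to 3 and 121.37, 125.01 and 195.45 in cFos replicates 1 to 3. The highest cFos score stood below the lowest EYFP score. The means were 289 ± 30.4 and 147 ± 41.8 (SD, 3 libraries each; exact two-sided permutation p = 0.1, the lowest possible). In percentiles of each list it stood at 87.8, 87.7 and 87.1 in EYFP and at 66.1, 67.7 and 79.2 in cFos libraries, a difference of -16.5 (exact permutation p = 0.1). Its peaks covered 928, 1032 and 955 bp in EYFP and 631, 723 and 659 bp in cFos replicates. On lists of equal length the percentiles were 84.8, 77.2 and 82.3 in EYFP and 62.2, 67.7 and 69.9 in cFos libraries, still apart.

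A region 978 kb into Nrxn3, from 90937609 to 90938487, was also lower in every cFos library on the full lists. It scored 169.62, 221.07 and 177.52 in EYFP and 135.01, 148.7 and 162.43 in cFos replicates. In percentiles the gap was small, at 76.8 ± 1.49 against 72.8 ± 2.34 (SD, n = 3; exact two-sided permutation p = 0.1). Values of 3 against 3 libraries that do not overlap always give 0.1 in this permutation test. The p-values of this region and of the one at 91050176 thus restate the gap and add no support. On lists of equal length the direction of the region at 90937609 turned to 2.02 percentiles higher in cFos. Thus 2 of the 9 shared regions in the windows (22.2%) had percentiles lower in every cFos library than in any EYFP library, and 0 had them higher. Over all 11837 shared regions the shares were 13.2% and 2.03%. The same 2 regions were apart by raw score, where the shares over all shared regions were 15.1% lower and 0.853% higher in cFos. On equal-length lists 1 of 8 shared regions was lower and 1 higher, against 6.76% and 6.29% of all shared regions. The higher one was the Nrxn3 region from 90344632 to 90345400. It scored 126.59, 232.75 and 124.18 in EYFP and 139.8, 128.84 and 175.26 in cFos replicates, and on the full lists its groups overlapped.

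**Figure D4:**
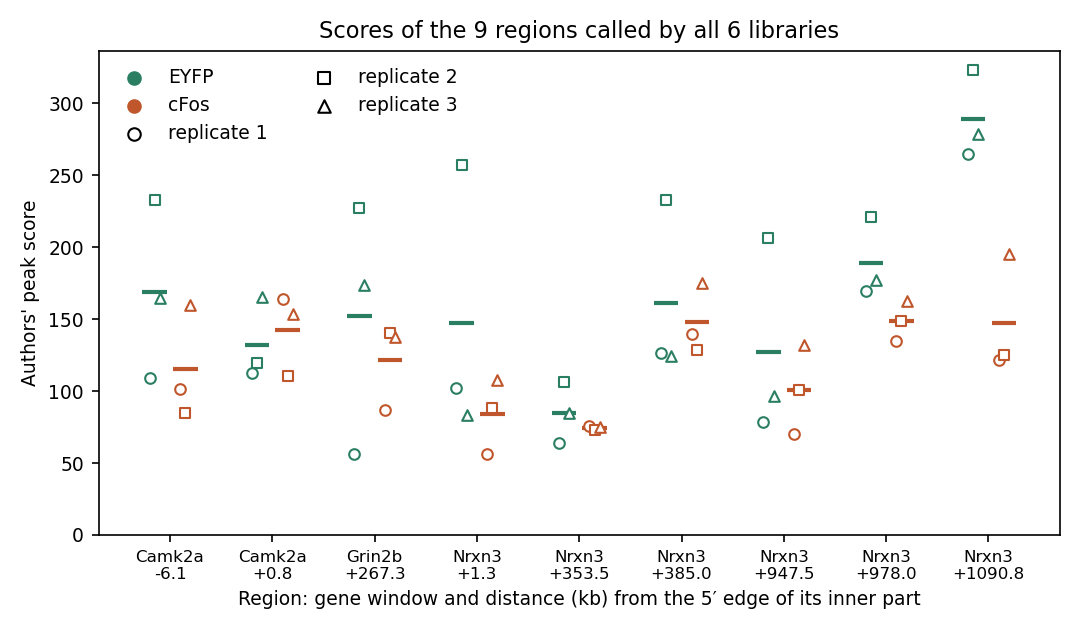
Authors' peak score (vertical axis) of the 9 regions that all 6 libraries called, by library. Labels give the gene and the distance in kb from the 5′ edge of its inner part, symbols are replicates and bars are group means. At +1090.8 kb in Nrxn3 the EYFP scores run from 265.16 to 323.31 and the cFos scores from 121.37 to 195.45, and in most other regions the groups overlap.

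The other 3 shared Nrxn3 regions overlapped between the groups. The one near the 5′ edge, from 89961033 to 89961663, scored 102.42, 256.95 and 83.6 in EYFP and 56.57, 88.37 and 107.92 in cFos replicates (exact two-sided permutation p = 0.5), with EYFP replicate 2 far above the rest. The region from 90313242 to 90313810 scored between 63.58 and 106.18 in EYFP and between 72.7 and 76.05 in cFos libraries. The region from 90907128 to 90907839 scored between 78.59 and 206.51 in EYFP and between 70.39 and 131.76 in cFos libraries. It opens a group of 4 regions within 54.3 kb, together with the region at 90937609 and with 90927458 to 90928108 and 90960787 to 90961406. Those last were called in all 3 EYFP libraries and, among cFos libraries, in replicate 3. The first of them scored 87.24, 98.63 and 112.37 in EYFP replicates and 50.75 in cFos replicate 3. The second scored 162.52, 142.96 and 126.79 in EYFP replicates and 111.2 in cFos replicate 3. Toward the 3′ end, the region from 91512955 to 91513580 had the highest score of any cFos peak in the window, 232.97 in replicate 3, against 72.59 in cFos replicate 1, no call in cFos replicate 2 and 82.81 to 118 in EYFP libraries.

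Of all 122 regions, 1 (0.820%) was called in 3 of 3 EYFP and 0 of 3 cFos libraries, against a background of 1.97% of all merged regions. It was the Nrxn3 region from 91298092 to 91298823, with scores of 89.87, 123.55 and 83.78 in EYFP replicates. None of the 122 showed the opposite pattern, for which the background is 0.449%. On lists of equal length the EYFP pattern held in 2 of 70 regions (2.86%), against 1.35% of all regions there, and the cFos pattern in 0 of 70, against 0.937%. The second was the Nrxn3 region from 90927458 to 90928108, whose weak cFos replicate 3 peak fell out of the shortened list. No single region was tested for a difference beyond the exact permutation tests given, in which none can fall below 0.1.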

How the data were processed

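ATAC-seq libraries from the dentate gyrus of 3 EYFP and 3 cFos mice were compared, with groups and replicate numbers taken from the sample titles. Per the submitters' processing notes, Bowtie2 and mm9 were used. Each deposited file lists the peaks of 1 library, named MACS, with the authors' score per peak, which was used without normalization between libraries. What the labels and files leave out, namely the meaning of that score, the caller's settings and the treatment of duplicate reads, is not given in the sources used here.

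Peaks on chromosomes 1 to 19 and X were merged where they touched or overlapped. bedtools 2.31.1 gave the same 70575 regions. A percentile is the share of a library's peaks that score at or below a peak, and a region takes the library's highest peak in it. Coordinates are mm9, printed 1-based. Equal-length lists hold the 23986 highest-scoring peaks of each library, with percentiles ranked anew. Tiles of a window's length started at the first called peak of each chromosome. Tests between groups were exact two-sided permutation tests on the 20 assignments of libraries, with 0.1 as the smallest p, so none can reach 0.05 and no adjusted value could pass.

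Regions described are, per window, up to 3 shared by all libraries with the highest mean percentile, those called in 1 group alone, those with percentiles apart, and the widest; others were chosen after their values were seen. The genes, windows and rules were chosen with earlier results of these data known. Same-numbered libraries did not deviate together over the merged regions (correlations -0.0148, -0.00774 and 0.003), so numbers were not treated as pairs. The scripts were tested on simulated lists. The strain, date and batch could not be used. Tools were matplotlib 3.10.9, scipy 1.17.1, pandas 2.3.3 and numpy 2.4.6 under Python 3.11.15.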

Additional observations from a re-analysis of the deposited data

How the results depend on the processing

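Alternatives were a stricter score (above 93.41), equal- and half-length lists (23986 and 11993 peaks), each library left out, the replicate block, the inner part or the peak midpoint, other scalings, a cover of at least 50% of a region and merging across 200 bp. The Grin2a difference in peak density stayed below 0 in all 14 alternatives run for it. In those measured in peaks per 100 kb, which leaves out the other scalings, it ran from -0.855 to -0.0630. It was smallest, at -0.0630, on both equal- and half-length lists, and was -0.252 with the stricter score (exact permutation p = 0.4). The percentile difference of the Nrxn3 region at 91050176 stayed below 0 in all 10 run for it, from -37.7 to -14.1. The alternatives reuse the same libraries, so agreement in sign among them is not independent. In both results the groups did not overlap, so leaving out a library could not change the sign. The replicate block keeps the difference itself and changes only the test. The sign in these runs was thus fixed in advance and adds no support. The cause of the changes that follow was not tested. The Camk2a density difference turned to 0.613 on equal-length lists, 0.204 on half-length lists, 1.06 in the inner part and 0.0617 per 10000 listed peaks, and ran from -0.920 to 0 with libraries left out. On half-length lists the density difference was 0 in Gria1, 0.0593 in Grin2b and 0 in Nrxn3. In Nrxn3 the difference in median percentile turned to 7.29 with the stricter score (exact permutation p = 0.1, the lowest possible). There it was 2.27 on equal-length and 5.66 on half-length lists (exact permutation p = 0.5 for each). The difference in median percentile turned as well in Grin2b (0.826 on equal-length lists) and in Camk2a (6.20 on half-length lists). With libraries left out it ran from -6.28 to 2.82 in Nrxn3, from -6.08 to 1.86 in Camk2a and from -12.0 to 4.002 in Grin2a. The Nrxn3 region at 90937609 turned to 2.02 on equal-length and 4.04 on half-length lists.

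The number of EYFP-only regions, 1, became 0 with the stricter score, 2 on equal-length lists, 0 on half-length lists and 5 with a cover of 50%, and ran from 1 to 7 with libraries left out (7 without EYFP replicate 3, 3 or 4 without each of the others but EYFP replicate 2). The number of cFos-only regions, 0, then ran from 0 to 2. Shared regions ranked lower in cFos numbered 1 on equal-length and 1 on half-length lists and 2 to 5 with libraries left out (5 without EYFP replicate 1), and those ranked higher numbered 1, 1 and 0 to 1. A group with a library left out has 2 libraries, so its rules are met more easily. With the replicate block, the Grin2a density difference was -0.693 peaks per 100 kb (exact sign-flip p = 0.25, the smallest for 3 pairs). Under the block, which asks only that every pair differ in 1 direction, shared regions ranked lower in cFos numbered 3 in place of 2, and the other counts were as without it. Read depth, which limits how many weak peaks are called, is unknown.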
